A study of Mus musculus with 8 samples.

Results

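Genes that coat lipid droplets or help to form them were compared between the brown adipose tissue of mice with and without Nampt in their fat cells. The set was chosen by symbol and holds 9 genes of the 41388 in each count file: the CIDE genes Cidea, Cideb and Cidec, the perilipin genes Plin2, Plin3 and Plin4, the FIT genes Fitm1 and Fitm2, and the seipin gene Bscl2. Every one of the 9 was found once in all 8 files and passed the filter on low counts. Tissue came from 8 C57BL/6J mice kept at room temperature on regular chow, and their age is not given in the sources used here. The 4 control mice (WT) were labelled wild type (flox/flox), with Cre status not stated in the labels, and the 4 knockout mice (ANKO) lacked Nampt in adipocytes through floxed Nampt alleles and an adiponectin-Cre transgene. The adiponectin promoter drives Cre in fat cells, so other cells of the tissue keep the gene. Nampt makes nicotinamide mononucleotide, a precursor of NAD.

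A lipid droplet is a core of neutral lipid under a single layer of phospholipid, and it buds from the endoplasmic reticulum. FIT proteins and seipin act at the sites in the endoplasmic reticulum where droplets arise. Perilipins cover the droplet surface and control the access of lipases. CIDE proteins gather where droplets touch and move lipid from the smaller to the larger one. Brown fat cells hold many small droplets and burn their lipid for heat, with Cidea as a gene typical of them.

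Total counts per library ran from 21771276 to 49697156 in WT and from 5738067 to 26426476 in ANKO. The values of ANKO2, ANKO3 and ANKO4 rest on fewer reads than those of any WT mouse, while ANKO1 lay within the WT range. Levels are in CPM, read counts divided by a library total scaled by the TMM method. Means are given ± SD over 4 mice, and a gene was called when the adjusted p of edgeR's quasi-likelihood test over 16705 genes was under 0.05. Nampt, the targeted gene, was at 484, 484, 571 and 495 CPM in the WT mice, and the ANKO mice had 67.4, 69.5, 77.6 and 74.6 CPM. The means were 508 ± 42.2 and 72.3 ± 4.67 CPM, so that 14.2% of the WT level was left in the whole tissue (log2 fold change -2.81, SE 0.12, edgeR adjusted p = 1.51e-07). Of all genes tested, 9726 or 58.2% were called, 30.6% higher and 27.6% lower in ANKO, and in 55.0% the libraries of the groups did not overlap. Of the calls, 52.5% were higher in ANKO, against 66.7% with no scaling factor and 96.2% when libraries were scaled to general adipocyte markers. Of 12 general adipocyte markers 9 were lower in ANKO, and they summed to 24294 to 31819 CPM in WT mice against 10135 to 17492 CPM in ANKO mice. Of 8 brown adipocyte markers 6 were lower, with sums of 5056 to 12832 CPM and 688 to 2689 CPM. Most markers of skeletal muscle (12 of 15), macrophages (12 of 12) and fibroblasts (5 of 6) were higher in ANKO, and 3 of 6 endothelial markers were lower. Muscle values are given beside Fitm1, and macrophage values beside Plin2. Of the counts outside rRNA, mitochondrially encoded genes held 7.15% to 7.56% in WT libraries and 2.22% to 3.11% in ANKO libraries. A fit on protein-coding nuclear genes alone, without them, called 5 of the 9 genes lower and 2 higher, the same counts as the main fit. Cidea had a log2 fold change of -1.42 in that fit. Any other part of the mitochondrially encoded genes in the changes was not tested. In bulk tissue, fewer cells of a type and less RNA per cell cannot be told apart.

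Of the 9 genes, 5 were lower in ANKO, 2 were higher and 2 were not called under TMM scaling. Scaled to general adipocyte markers, 1 was lower and 4 were higher, and with the muscle covariate 0 were called by edgeR (3 with an unadjusted p under 0.05). Under TMM, the lower genes were Cidea, Cidec, Plin4, Fitm2 and Bscl2, with log2 fold changes from -1.40 to -0.62. The higher genes were Fitm1 and Plin2. In 6 of the 9 the groups did not overlap, a share not far from that over all genes. The median log2 fold change of the 9 was -0.87, beside -0.01 over all genes tested. Lower calls under TMM thus made up more of these 9 genes than of the whole table, and higher calls less; with 9 genes chosen by name this is a description without a test. The perilipins and the FIT genes each held members called in opposite directions.

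**Figure D1:**
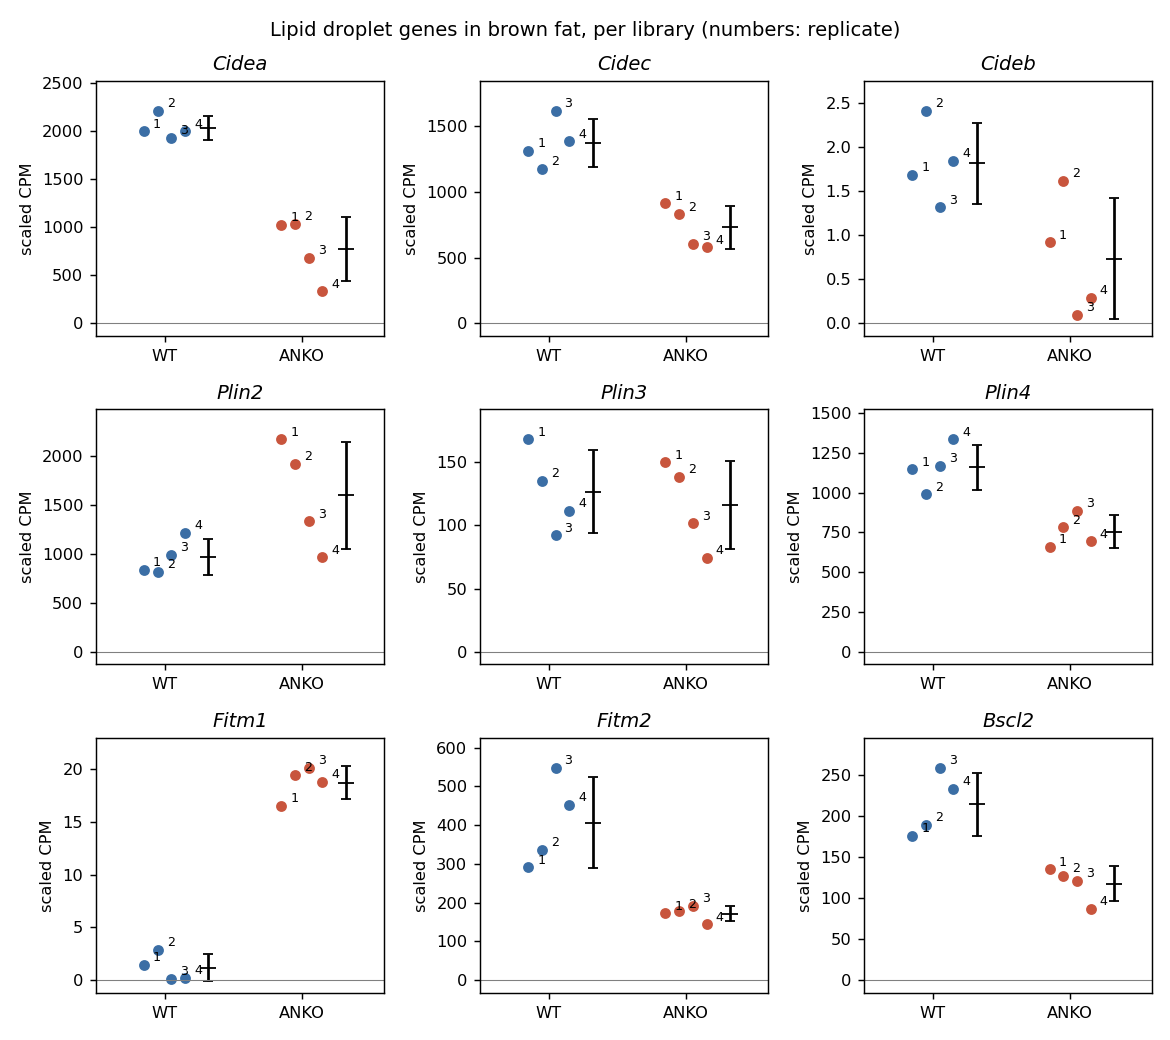
Level of each of the 9 genes in the 4 WT and 4 ANKO mice, in scaled CPM on a linear axis that differs between panels. Points are mice, and bars are the mean and SD. Cidea, Cidec, Plin4, Fitm2 and Bscl2 lie lower in every ANKO mouse than in every WT mouse, Fitm1 lies higher, and Cideb, Plin2 and Plin3 overlap.

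The upstream stretches of 4 members are shown because these genes stand for the opposite changes: Cidec and Fitm2 were lower in ANKO, and Fitm1 and Plin2 were higher. The bases come from RefSeq's promoter table for GRCm38.p6, read 5′ to 3′ on the gene's own strand and ending just before the first exon base. Capitals mark matches to motifs searched on both strands: CAGCTG, an E-box of the kind read by MyoD-type factors, GGGCGG, the GC box, CCAAT, and AGGTCA, the hexamer of nuclear receptor sites, whose reverse complement reads TGACCT.
Cidec, chr6:113435761-113436010, minus strand: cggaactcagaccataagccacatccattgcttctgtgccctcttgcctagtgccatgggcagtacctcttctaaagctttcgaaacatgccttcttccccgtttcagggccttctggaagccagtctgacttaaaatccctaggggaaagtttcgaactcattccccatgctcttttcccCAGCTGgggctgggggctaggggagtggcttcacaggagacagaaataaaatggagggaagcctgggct
Fitm2, chr2:163472630-163472879, minus strand: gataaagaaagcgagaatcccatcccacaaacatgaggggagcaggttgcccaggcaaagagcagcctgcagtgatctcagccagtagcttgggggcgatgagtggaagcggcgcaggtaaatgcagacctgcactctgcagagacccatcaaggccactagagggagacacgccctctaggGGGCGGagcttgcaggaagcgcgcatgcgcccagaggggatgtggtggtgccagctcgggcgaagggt
Fitm1, chr14:55575424-55575616, plus strand: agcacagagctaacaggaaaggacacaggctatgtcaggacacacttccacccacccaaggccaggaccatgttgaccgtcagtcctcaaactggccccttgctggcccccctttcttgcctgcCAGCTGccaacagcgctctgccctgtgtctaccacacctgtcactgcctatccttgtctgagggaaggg
Plin2, chr4:86670061-86670309, minus strand: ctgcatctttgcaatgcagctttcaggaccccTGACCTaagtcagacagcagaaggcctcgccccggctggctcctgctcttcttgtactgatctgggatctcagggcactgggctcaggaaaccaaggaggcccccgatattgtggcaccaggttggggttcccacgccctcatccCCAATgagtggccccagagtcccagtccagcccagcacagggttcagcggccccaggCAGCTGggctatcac

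The table held windows for 8 of the 9 members, reaching from 250 bases before to 50 after a start, and Cidea was not matched. CAGCTG lay in the windows of 3 members, Cidec, Fitm1 and Plin2, and in 16.3% of all 32851 promoters; this motif was added to the search after the data had been seen. AGGTCA lay in windows of Bscl2 and Plin2 and in 16.3% of all promoters. GGGCGG lay in 5 members and 35.7% of all promoters, and CCAAT in 4 members and 37.4%. A member was counted when any of its windows held the motif, and Bscl2 and Cidec had more than a single window. The share over all promoters is per window, so the member counts and these shares are not on the same footing. CACGTG was found only in Plin2 among the members (7.15% of all promoters), and TATAAA only in Cideb (13.6%). A direct repeat of AGGTCA with 1 base between the copies (DR1) was in no member window and in 0.0396% of all promoters. TCAAGGTCA and TGACGTCA were in no member window either, beside 0.423% and 1.79% of all promoters. A match describes the letters of a window and says nothing of whether a factor was bound.

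Both abundant CIDE genes were lower in ANKO. Cidea (chromosome 18, 67343564 to 67367794, GRCm38), the CIDE gene typical of brown fat, was measured at 1999, 2214, 1930 and 2001 CPM in the WT mice, and at 1028, 1036, 682 and 333 CPM in the ANKO mice. The WT mice lay close together, while the ANKO mice spread widely, with ANKO4 lowest. The means were 2036 ± 123 and 769.8 ± 335 CPM, 2.64-fold lower, with a log2 fold change of -1.40 (SE 0.31, edgeR adjusted p = 0.00310). The coefficient of variation was 6.06% in WT and 43.5% in ANKO. Per kb of exon, Cidea was the highest of the 9 genes in both groups, at rank 22 of the 16705 genes in WT and rank 36 in ANKO.

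Cidec (chromosome 6, 113424634 to 113435760), also called FSP27, is the CIDE gene of white fat and favours large droplets. The WT mice had 1311, 1176, 1616 and 1384 CPM, and the ANKO mice 911, 827, 605 and 577 CPM, without overlap. The fall was 1.88-fold, from 1372 ± 185 to 730.3 ± 165 CPM (log2 fold change -0.91, SE 0.19, edgeR adjusted p = 0.00214). Within a library, the ratio of Cidec to Cidea per kb had a geometric mean of 0.420 in WT and 0.641 in ANKO. ANKO4 stood at 1.09, and the other ANKO mice at 0.501 to 0.557, beside 0.333 to 0.525 in WT. The log2 difference of 0.61 did not pass the threshold (exact permutation test, two-sided, p = 0.0571, adjusted over 5 ratios 0.0714).

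Cideb (chromosome 14, 55754045 to 55758458), known for liver and lipoprotein secretion, was at a much lower level and was not called. The WT mice had 1.68, 2.41, 1.31 and 1.84 CPM, and the ANKO mice 0.918, 1.61, 0.0946 and 0.291 CPM, from 34, 62, 43 and 81 counts and 24, 14, 1 and 2 counts. ANKO2 lay inside the WT range, and the log2 fold change was -1.25 (SE 0.51, edgeR adjusted p = 0.0553). The gene was called lower under 5 alternatives: with the replicate block (adjusted p = 0.0345), DESeq2 (0.0322), limma-voom (0.0306), no filter on low counts (0.0473) and ANKO2 left out (0.0177). Exons of Nop9 on the opposite strand cover 76.4% of the exon bases of Cideb, and the strand setting of the counting is not given, so reads of the pair cannot be told apart. Nop9 had a mean of 16.8 CPM in WT mice and 20.6 CPM in ANKO mice. Hepatocyte markers were low: 4 of 8 passed the filter, 2 were higher in ANKO, and they summed to 4.75 to 16.3 CPM in WT mice and 10.1 to 38.1 CPM in ANKO mice; Ttr and Tat were each at 0 in 1 ANKO library.

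The summed CIDE level per kb was 2489 ± 54.1 in WT and 1055 ± 370 in ANKO. Cidea made up 65.5% to 75.0% of it in WT, and in ANKO 64.2% to 66.6% in 3 mice and 47.9% in ANKO4. Cideb made up 0.0487% and 0.0413%. The family therefore kept a majority of Cidea in 7 of the 8 mice.

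Perilipins changed in opposite directions. Plin2 (chromosome 4, 86648386 to 86670060), the perilipin found on droplets in most cell types, had 839, 819, 993 and 1217 CPM in the WT mice, while the ANKO mice had 2173, 1923, 1335 and 966 CPM. ANKO1 and ANKO2 were far above all WT mice, ANKO3 was just above them, and ANKO4 lay below WT3 and WT4. The means were 967 ± 184 and 1599 ± 549 CPM, a 1.65-fold rise (log2 fold change 0.73, SE 0.26, edgeR adjusted p = 0.0324). The call was lost with limma-voom (adjusted p = 0.0549), with the replicate block (0.102) and without any 1 of WT1, WT2, WT3, ANKO1 or ANKO2 (0.0637 to 0.0955).

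Lipid-laden macrophages are known to express Plin2, and their markers were higher in ANKO. All 7 lipid-associated macrophage markers were called higher, with sums of 48.9, 48.8, 35 and 44.6 CPM for the WT mice and 826, 655, 1360 and 1276 CPM for the ANKO mice. All 12 general macrophage markers were higher too, with sums of 176 to 230 CPM and 1442 to 1970 CPM. None of these markers was at 0 in any library. Within ANKO, Plin2 was lowest in ANKO4 and ANKO3, the mice with the highest lipid-associated sums. The part of these cells in the level of Plin2 was not tested.

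Plin4 (chromosome 17, 56100591 to 56109803), a perilipin of fat cells that binds small droplets, had 1145, 988, 1168 and 1335 CPM in the WT mice, and 658, 781, 885 and 692 CPM in the ANKO mice. Every ANKO mouse was below every WT mouse, and the level fell 1.54-fold, from 1159 ± 142 to 754 ± 101 CPM (log2 fold change -0.62, SE 0.15, edgeR adjusted p = 0.00583). Without WT3 and WT4 the adjusted p was 0.0522. Unlike the CIDE genes, Plin4 was highest in ANKO3 among the ANKO mice.

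Plin3 (chromosome 17, 56278962 to 56290511), a perilipin that moves between cytosol and young droplets, was not called. The WT mice had 168, 135, 92.0 and 111 CPM, and the ANKO mice 149.8, 139, 101 and 74.2 CPM, with overlapping groups and a log2 fold change of -0.12 (SE 0.24, edgeR adjusted p = 0.682). Plin4, Plin5 and Plin3 lie on the same chromosome: 1797 bases lie between Plin4 and Plin5, and 169158 between Plin4 and Plin3. Their log2 fold changes were -0.62, -2.17 and -0.12.

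Plin1, the main perilipin of fat cells, and Plin5, which ties droplets to mitochondria, were both lower, with log2 fold changes of -0.98 and -2.17. Of the summed perilipin level per kb, Plin1 made up 51.4% ± 2.28 in WT and 36.3% ± 2.46 in ANKO, and Plin2 18.8% ± 2.57 and 42.2% ± 5.39. Plin2 was thus 37.6% to 48.0% of the sum in ANKO mice, against 16.5% to 22.4% in WT. Plin5 was 12% in WT and 3.66% in ANKO, Plin4 13.7% and 12.9%, and Plin3 4.06% and 5.02%.

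Ratios within a library do not depend on the scaling of library sizes. The ratio of Plin2 to Plin1 per kb rose from 0.364 to 1.16 (log2 difference 1.67, exact permutation test, two-sided, p = 0.029, adjusted over 5 ratios 0.0476). The ratio of Plin3 to Plin2 fell from 0.211 to 0.119 (log2 difference -0.82, exact permutation p = 0.029, adjusted 0.0476). The raw p of 0.029 is the smallest that 4 against 4 mice allow. The ratio of Plin4 to Plin1 went from 0.267 to 0.346 and did not pass (log2 difference 0.38, exact permutation p = 0.114, adjusted 0.114).

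**Figure D2:**
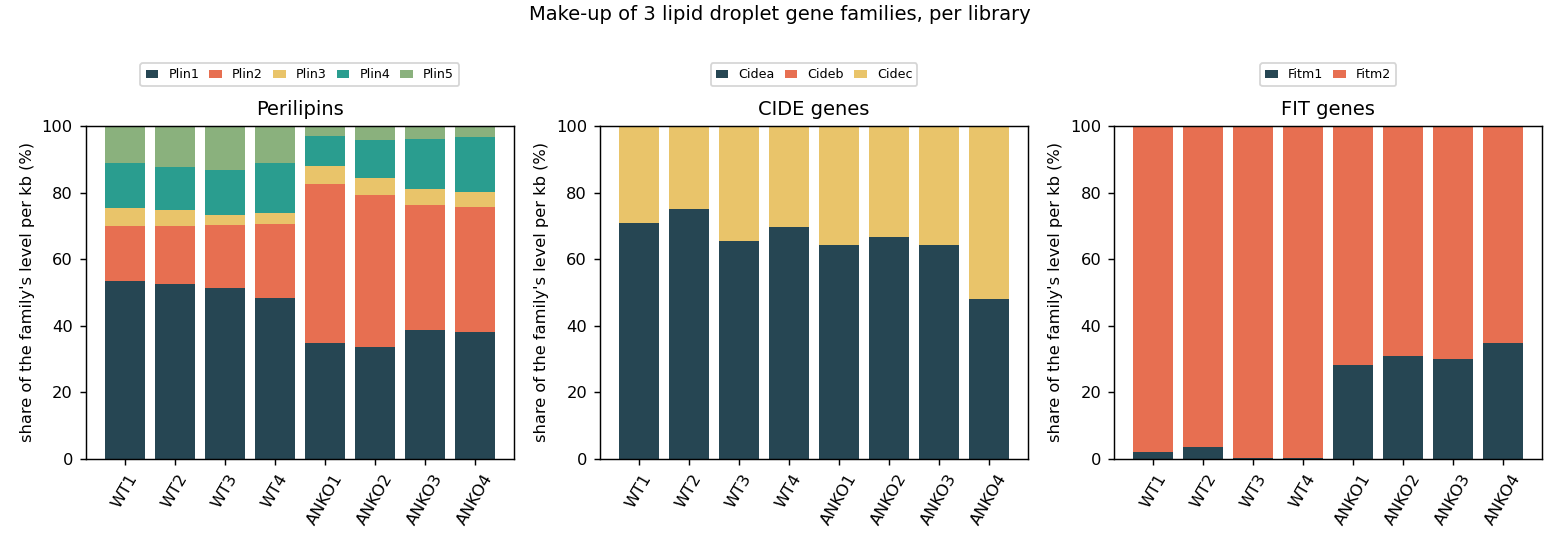
Share of each gene in the summed level per kb of its family, in percent, stacked for each of the 8 mice, for perilipins, CIDE genes and FIT genes. Plin2 takes 37.6% to 48.0% of the perilipin sum in ANKO against 16.5% to 22.4% in WT, and Fitm1 takes 28.2% to 34.8% of the FIT sum against at most 3.39%.

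The FIT genes moved in opposite directions. Fitm1 (chromosome 14, 55575617 to 55576952), the FIT gene found mainly in skeletal muscle, had 1.44, 2.87, 0.122 and 0.250 CPM in the WT mice, and 16.5, 19.5, 20.1 and 18.8 CPM in the ANKO mice. The WT values rest on 29, 74, 4 and 11 counts, and the ANKO values on 432, 169, 213 and 129. All ANKO mice were alike and above all WT mice, which spread widely. The means were 1.17 ± 1.28 and 18.7 ± 1.57 CPM, and the rise fitted by edgeR was 17-fold (log2 fold change 4.09, SE 0.76, adjusted p = 0.00218). The size moves with the libraries kept: the log2 fold change was 5.19 without WT2 and 3.07 without WT3 and WT4. Of the exon bases of Fitm1, 11.25% are shared with an antisense gene that held 66 counts over the 8 libraries, beside 1061 for Fitm1.

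Skeletal muscle markers rose with Fitm1. Of 15 markers, 12 were called higher in ANKO and 0 lower, and the groups did not overlap for any of the 15. Their sums were 1047, 2970, 138 and 41.9 CPM for the WT mice and 10402, 11828, 15667 and 15445 CPM for the ANKO mice, and Tnnc2 was at 0 in 1 WT library. WT1 and WT2, the WT mice with more muscle RNA, were also those with more Fitm1. Per 1000 CPM of summed muscle markers, Fitm1 was 1.37, 0.968, 0.885 and 5.98 in WT and 1.59, 1.65, 1.29 and 1.22 in ANKO, so that the groups overlapped, with WT4 resting on 11 counts. With the mean level of the muscle markers as a covariate, the log2 fold change of Fitm1 was 1.13 (SE 0.46, edgeR adjusted p = 0.105).

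**Figure D3:**
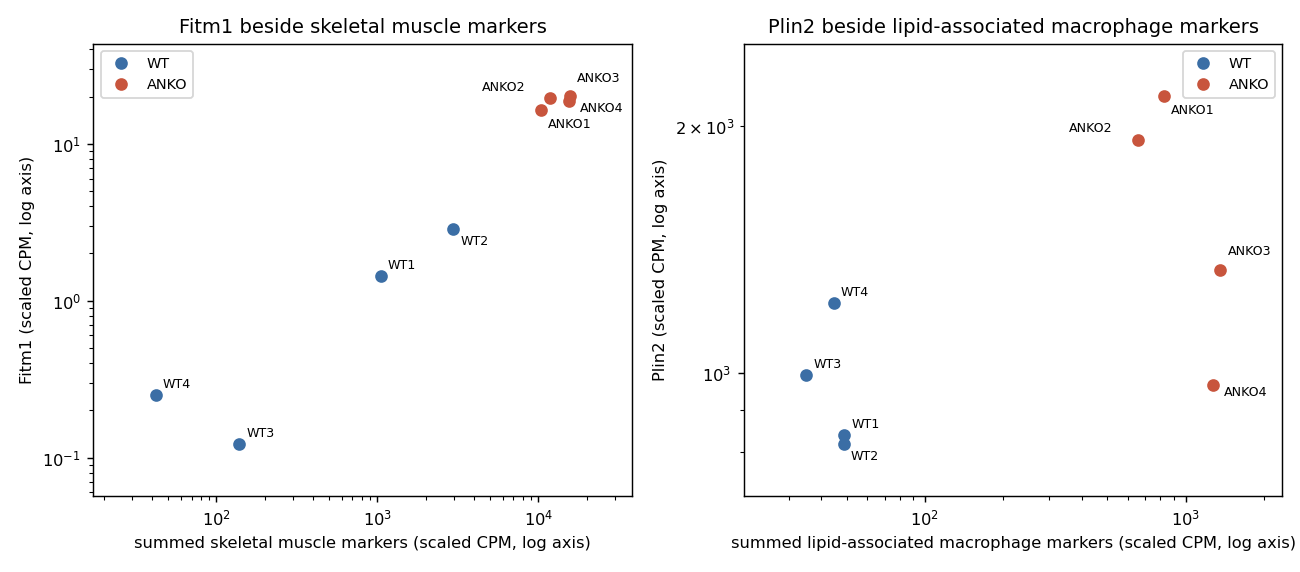
Left, Fitm1 against the summed skeletal muscle markers; right, Plin2 against the summed lipid-associated macrophage markers, all in scaled CPM on log axes. Each point is a mouse. The 4 ANKO mice lie above the 4 WT mice on both axes of the left panel. Plin2 is lowest among ANKO mice in ANKO4, with a lipid-associated macrophage sum of 1276 CPM.

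Fitm2 (chromosome 2, 163466379 to 163472629), the FIT gene expressed in fat and most other tissues, had 291, 336, 548 and 452 CPM in the WT mice, and 172, 177, 192 and 144 CPM in the ANKO mice. Every ANKO mouse was below every WT mouse, and ANKO varied less than WT. Within WT, WT1 and WT2 lay below WT3 and WT4. The fall was 2.37-fold, from 407 ± 116 to 172 ± 20.1 CPM (log2 fold change -1.24, SE 0.20, edgeR adjusted p = 0.000423). Of the 9 genes, this one had the smallest adjusted p. The ratio of Fitm1 to Fitm2 per kb rose from 0.00648 to 0.449 (log2 difference 6.12, exact permutation p = 0.029, adjusted over 5 ratios 0.0476). The log2 difference was 5.23 to 6.93 with 1 library left out, and 4.06 without WT3 and WT4, whose Fitm1 rests on 4 and 11 counts. Despite the rise of Fitm1, the summed FIT level per kb was 104 ± 28.3 in WT and 62.6 ± 5.79 in ANKO.

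Bscl2 (chromosome 19, 8837467 to 8848683) encodes seipin, a ring-shaped protein at the neck between the endoplasmic reticulum and a growing droplet, whose loss causes congenital lipodystrophy. The WT mice had 175, 189, 258 and 233 CPM, and the ANKO mice 135, 127, 121 and 86.7 CPM, without overlap. WT1 and WT2 again lay below WT3 and WT4. The level fell 1.82-fold, from 214 ± 38.4 to 117 ± 21.2 CPM (log2 fold change -0.87, SE 0.17, edgeR adjusted p = 0.00139). Bscl2 shares 6.75% of its exon bases with Gng3.

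**Figure D4:**
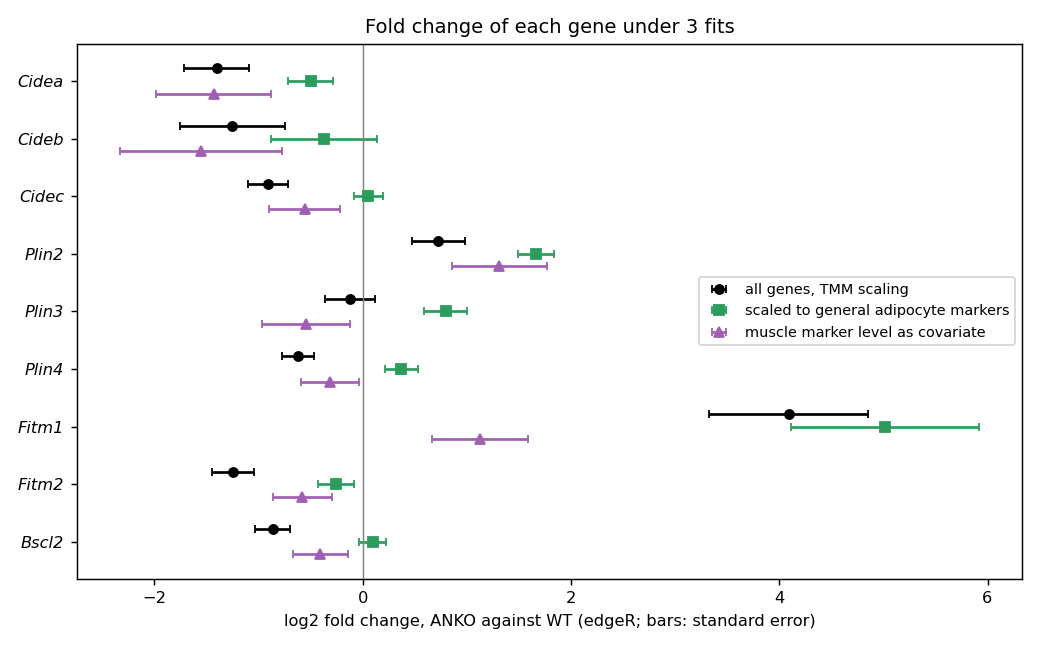
Log2 fold change (ANKO against WT) of each of the 9 genes with its standard error, under TMM scaling, with muscle markers in the model, and scaled to general adipocyte markers. With TMM, Cidea is at -1.40 and Fitm1 at 4.09; with adipocyte scaling Cidec, Plin3, Plin4 and Bscl2 move above 0.

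How the members compare with the rest of the adipocyte RNA depended on the scaling. When libraries were scaled so that the median of the general adipocyte markers was level, the median log2 fold change of all genes was 0.96. Under that scaling Cidea stayed lower (-0.50, edgeR adjusted p = 0.0481), and Fitm2 was at -0.26 (adjusted p = 0.177). Cidec was at 0.056 and Bscl2 at 0.10; the marker list holds Plin1. Plin2 was higher by 1.66 (adjusted p = 4.5e-06), Plin3 by 0.80 (adjusted p = 0.00376) and Plin4 by 0.37 (adjusted p = 0.0434). With the muscle covariate 0 members were called by edgeR, and 3 had an unadjusted p under 0.05; no other tool was run with it. The adjusted p of the 7 genes called without it then ran from 0.0624 (Plin2, log2 fold change 1.31) to 0.460 (Plin4, -0.31), and Cidea was at -1.43 (0.0894). That covariate differed between the groups (72.0% of its variance), and the median SE over genes went from 0.18 to 0.30.

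The order of level per kb (scaled CPM per kb of exon) in WT was Cidea (1749), Cidec (739), Plin2 (275), Plin4 (201), Fitm2 (103), Plin3 (58.7), Bscl2 (36.3), and last Cideb and Fitm1, both at 1.21. In ANKO it was Cidea (661), Plin2 (455), Cidec (393), Plin4 (131), Plin3 (53.7), Fitm2 (43.2), Bscl2 (19.9), Fitm1 (19.3) and, lowest, Cideb. Plin2 passed Cidec, and Plin3 passed Fitm2. Among ANKO mice, ANKO4, which has the lowest depth and the lowest general adipocyte sum, was the lowest for 6 of the 9 genes.

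The genes with the most similar pattern over the 8 libraries, given for 8 of the members, among 9264 protein-coding genes of at least 10 CPM, are a description only, since the 8 libraries share the group difference. They were Cbr4 for Cidea (Pearson r of log2 CPM 0.997, and 0.993 after removing group means), Wdr45 for Cidec (0.997 and 0.987), Sdhaf3 for Cideb (0.954 and 0.927), Ctnna1 for Plin2 (0.990 and 0.983), Nr4a2 for Plin3 (0.995 and 0.994) and Trib2 for Plin4 (0.986 and 0.934). For Fitm1 it was Pkia (0.999 and 0.998), and for Bscl2 Dnajc11 (0.997 and 0.985). Each gene named had the highest r of 9264 candidates over 8 libraries, a choice that by itself can raise both values.

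Other genes of the lipid droplet were mostly lower under TMM scaling. Of 39 on the list, 38 were tested, 27 were lower in ANKO, 2 higher and 9 not called. The median log2 fold change was -0.47, and 26 were without overlap of the groups. Over all genes tested, 27.6% were lower, 30.6% higher and 55.0% without overlap. The subgroup counts below stand beside the same shares. Scaled to general adipocyte markers, 7 were lower and 24 higher, and with the muscle covariate 10 were lower and 1 higher. Plin1 and Lipe are on this list and also among the markers used for that scaling. By construction it levels the median of those markers, not each of them. The counts and values that follow are those under TMM scaling. Of 9 genes of lipolysis at the droplet, 6 were lower and 1 higher. The lower ones included G0s2, which inhibits adipose triglyceride lipase (-2.54), and Pnpla2, that lipase itself (-1.15). Pnpla3, a lipase relative, was higher at 1.0 (edgeR adjusted p = 0.0263), with overlapping groups, and lost the call without WT2, WT3, WT4, ANKO1 or ANKO2 (0.0580 to 0.0730). Mgll (-0.23) and Hilpda (0.30) were not called.

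Of 8 genes of triglyceride synthesis, 5 were lower and 0 higher. Gpat4, a glycerol phosphate acyltransferase, had a log2 fold change of -1.98, Acsl1, which activates fatty acids, -1.70, Gpat3 -1.66, and Dgat2, which makes triglyceride, -1.58. Agpat2 was at 0.07 and not called. Of 10 genes of droplet formation and growth, 7 were lower and 0 higher. Clstn3, whose fat cell form limits the transfer of lipid by CIDE proteins, went from 495 to 81.8 CPM (-2.60), and Snx14, which works beside seipin at contact sites, had -1.17. Of 6 Rab and tether genes, 5 were lower, with Rab18 at -0.54. Of 5 tested other droplet proteins, 4 were lower, among them Mettl7a1 at -1.80, and Mettl7b was higher at 2.69, from a level of 0.216 CPM in WT to 1.36 CPM in ANKO.

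**Figure D5:**
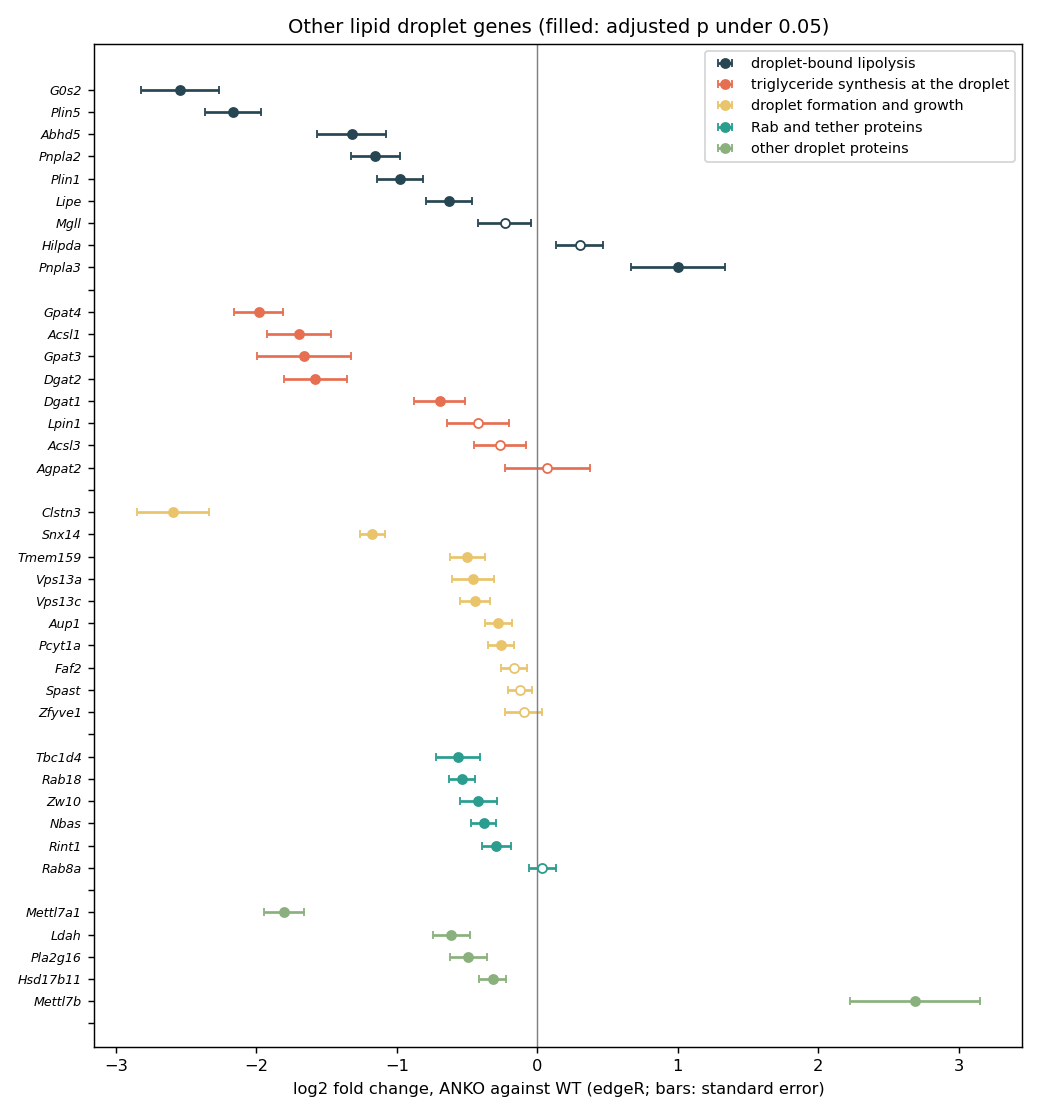
Log2 fold change (ANKO against WT) of the 38 other lipid droplet genes tested, under TMM scaling, by subgroup, each point a gene with its standard error, filled where called. Most points lie below 0, and 27 were called lower, beside 27.6% of all genes tested. Pnpla3 (1.0) and Mettl7b (2.69) were called higher. Scaled to general adipocyte markers, 7 were lower and 24 higher.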

How the data were processed

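Brown adipose tissue of 8 mice was flash-frozen, and its total RNA was depleted of rRNA (Ribo-Zero Gold), per the labels' protocols. Reads were processed with STAR 2.0.4b and featureCounts 1.45 of Subread on GRCm38 (submitters' processing notes). Which annotation release was used is not given in the sources used here, nor the strand setting or multi-mapping. The authors deposited a whole-number count, a CPM and an RPKM per gene. The deposited CPM and RPKM equal values recomputed from the deposited counts (tolerance 1e-09), and only counts were tested. Symbols came from GENCODE M21 (40340 of 41388 genes). The 355 rRNA genes were left out; they held 2.83% to 3.53% of the counts of WT libraries and 0.801% to 1.13% of those of ANKO libraries.

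Counts were filtered with filterByExpr and scaled by TMM, and ANKO was tested against WT with edgeR 4.0.16 (R 4.3.3) by the quasi-likelihood test, with Benjamini-Hochberg adjustment over 16705 genes and a threshold of 0.05. CPM printed here are these scaled values. Standard errors come from the F statistic. The biological coefficient of variation was 20.6%. Within-library ratios per kb used count + 0.5. Because 3 counts are 0.0604 CPM in WT4 and 0.523 CPM in ANKO4, depth limits Cideb in ANKO3 and ANKO4. Such floors cover counting error only. Replicates are mice by the series design. No libraries agreed within sampling noise (lowest chi-square per degree of freedom 6.63). Within WT this value was 26.2 for WT1 with WT2 and 23.0 for WT3 with WT4. For the other WT pairs it was 64.1 to 105, so the WT mice formed 2 pairs, and the cause was not tested.

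The members, the other gene lists and the named genes were chosen with earlier results of these data known. Genes outside the members were named by subgroup, with up to 4 called genes per direction by smallest p, plus genes not called, given by value. The gene most like Fitm2 is not reported here. Alternatives were other scalings and filters, DESeq2 1.42.0, limma-voom (limma 3.58.1), thinning, the replicate block, a muscle covariate and left-out libraries. The gene test was checked on simulated data in which few genes changed, equally in both directions. That check did not cover a change in as many genes as in these data. Figures used matplotlib 3.10.9.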

Additional observations from a re-analysis of the deposited data

Results flagged for a closer look

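In 4 of the 56 groups of 4 mice examined, 1 mouse lay far from the other 3. Chance gives about 1 in 20 such groups. For Nampt, WT3 was highest of the WT mice at 571 CPM, with the next at 495 CPM. Like the other WT mice, WT3 was far above every ANKO mouse. The other 3 come from 1 library and 1 pair of genes. In ANKO4 the log2 ratio of Cidec to Cidea per kb was 0.12, beside -0.84 for the next ANKO mouse. The share of Cidea in the summed CIDE level was 47.9% there, with 64.2% next, and the share of Cidec was 52.0%, with 35.8% next. ANKO4 also had the lowest total count and the lowest general adipocyte marker sum, and their part in this was not tested.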

How the results depend on the processing

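Of 197 values of the 9 genes under the alternatives, 168 kept direction and side of the threshold, 17 fell short of it, 5 newly passed it and 7 changed sign. Plin3, which was not called, was at 0.030 with no scaling factor and between -0.27 and 0.038 with 1 library left out, above 0 without WT1 (0.022) and without ANKO4 (0.038). Scaling to general adipocyte markers gave 1 member lower and 4 higher, and 7 other droplet genes lower and 24 higher. It reversed Cidec (0.056), Plin3 (0.80), Plin4 (0.37), Bscl2 (0.10) and Rab18 (0.47). By construction this scaling levels the median of those markers. The muscle covariate left 3824 genes called (of 9726), 0 members lower and 0 higher by edgeR (3 with an unadjusted p under 0.05), and 10 other droplet genes lower and 1 higher. With no scaling factor 17 other droplet genes were lower and 4 higher. Members called higher were 1 with limma-voom, 1 with the replicate block and 1 at an adjusted p under 0.01. Other droplet genes called higher were 1 with no filter, with at least 1 CPM in 4 libraries, with WT3 and WT4 left out, with thinning and at 0.01. Leaving out 1 library gave 8942 to 10467 genes called, 5 to 6 members lower, 1 to 2 higher, and 23 to 26 and 1 to 2 other droplet genes. Without WT3 and WT4 the log2 difference was -1.31 for Plin3 to Plin2 and 4.06 for Fitm1 to Fitm2; the cause was not tested. With 1 library left out no exact permutation test of a ratio can go below p = 0.0571.

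Replicate numbers did not pair the samples (correlations of deviations 0.15, -0.03, 0.06 and -0.06 over 9430 genes). With the number as a block 9239 genes were called, 4278 lower and 4961 higher. Depth limits Cideb, with 1 and 2 counts in ANKO3 and ANKO4. Fitm1 had 4 and 11 counts in WT3 and WT4, although these libraries had the highest total counts.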

Other observations

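Transcription regulators of fat and lipid genes were read beside the droplet genes. Of 14 tested under TMM scaling, 8 were lower in ANKO, 1 was higher and 5 were not called, with a median log2 fold change of -0.83. Over all genes tested, 27.6% were lower and 30.6% higher. The general adipocyte markers, a list that itself holds Pparg and Cebpa, had a median of -0.89. Whether the regulators fell more than other adipocyte RNA was not tested. Ppara, which drives fatty acid oxidation, went from 583 ± 37.9 to 125 ± 42.8 CPM (log2 fold change -2.22). Ppargc1b, a coactivator of mitochondrial genes, was at -1.68, Esrrg, an oestrogen-related receptor, at -1.37, and Pparg, the main regulator of fat cell genes, at -1.07. Rxra, the partner receptor of these PPARs, was higher at 0.31 (edgeR adjusted p = 0.0361) with overlapping groups, and lost the call without WT1, WT2, WT4 or any 1 ANKO mouse (0.0532 to 0.122). Not called were Srebf1 (0.70), Cebpa (-0.47), Hif1a (-0.17), Ppard (-0.09) and Esrrb (-0.49).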
